A study of Homo sapiens with 17 samples.

Results

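The 47 genes described here encode the machinery of endocytosis, of the early endosome and of ESCRT sorting. They were taken from a list of genes by name and fall into 4 roles. The list was chosen with earlier results of these data known. There are 8 genes of clathrin and its plasma membrane adaptor AP-2, 7 of endocytic accessory proteins and flotillins, 12 of Rab GTPases and early endosome proteins, and 20 of the ESCRT complexes. All 47 were among the 13251 genes with enough reads to be tested, so a filter on low counts removed no member.

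RNA was profiled in 17 libraries from K562 cells, an established line grown from a chronic myeloid leukaemia. Every library came from cells electroporated with plasmids for CRISPR activation, which directs a transcriptional activator to the promoter of a chosen gene, then given an antisense oligonucleotide (ASO) and processed on day 6. By its title the study concerns GOLGA8, a family of golgin genes, in ASO uptake and activity. The groups were 3 libraries labelled GOLGA8N (GOLGA8N 1, GOLGA8N 2 and 23-GOLGA8N), 3 labelled LAPTM4B (LAPTM4B 1, LAPTM4B 2 and 22-LAPTM4B) and 11 others with 1 library per label (20-ARSF, 21-CTPS2, ADORA2A, COL6A6, E7, TRPC5OS, TTR, UBE2V1, Neg, GFP and RFP). All groups carried CRISPR components and ASO, and no library is labelled as untreated. The labels do not say what Neg and E7 stand for, what the numbers 20 to 23 before 4 labels mean, or whether each library is a culture of its own. The p-values here therefore refer to the spread between libraries alone, which may be technical among those of 1 label. All groups share 1 estimate of that spread, and the different plasmids of the 11 others add to it.

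Clathrin-mediated endocytosis starts when AP-2 binds cargo and the lipid PIP2 at the plasma membrane and recruits clathrin triskelia, which bend the membrane into a coated pit. Dynamin then cuts the pit off as a vesicle. RAB5 directs the uncoated vesicle to fuse with early endosomes, from which RAB4, RAB35 and RAB11 return cargo to the surface, while RAB7 marks the passage to late endosomes. The ESCRT complexes collect ubiquitinated cargo and bud it into the lumen of the endosome, and the ATPase VPS4 takes the ESCRT-III polymer apart. ASOs enter cells largely by such routes and have to cross an endosomal membrane to act.

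Library totals in genes ran from 564839 estimated reads in GFP and 2234637 in the next lowest library to 4206125, with a median of 3197499. A gene with 3 reads stands at 5.31 CPM (counts per 1e6 reads in genes) in GFP. GOLGA8N itself received 99.4 reads in its own 3 libraries together, at 1.06 to 25.3 CPM, against 2.1 reads in the 14 others, at most 0.269 CPM. Nearly all of them lay on transcripts of alternate loci, and GOLGA8 genes are near-identical copies, so the locus is uncertain. The lowest GOLGA8N library, at 1.06 CPM, held fewer than 3 reads of GOLGA8N, since 3 reads make at least 1.1 CPM in each GOLGA8N library. LAPTM4B was at 161 to 216 CPM in its own libraries, against 152 to 298 CPM in the 14 others. The median of those 14, 218.5 CPM, lay above every library labelled LAPTM4B, so a rise of the targeted gene was not seen there, and the groups are named by their labels only. The labels call the cells lymphoblasts. The 7 erythroid markers summed to 4621 to 8960 CPM, whereas the 6 lymphoid markers summed to 33.7 to 116.4 CPM, nearly all of it CD3D, with MS4A1 and CD3E at 0 reads in every library.

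Together the 47 genes took 0.354% to 0.428% of the reads in a library, or 3924 ± 243.5 CPM (SD, n = 17). Their summed level thus varied by 6.21% of its mean. Single members varied more, with a median coefficient of variation over the 17 libraries of 25%, against 47.3% for all genes tested. The members were also more abundant, at a median of 51.6 CPM against 12.5 CPM. Members averaging at least 100 CPM numbered 13, and 12 averaged under 20 CPM. The steadiest member was AP2B1, at 93.4 to 139.2 CPM with a coefficient of variation of 9.48%. The most variable was CHMP2B, at 103%. GFP alone stood at 44.3 CPM of CHMP2B, while the other 16 libraries lay between 1.41 and 16 CPM. GFP held the highest value of 12 members and the lowest of 9, and the 3 members with 0 reads there were STAM, STAM2 and CHMP6.

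**Figure D1:**
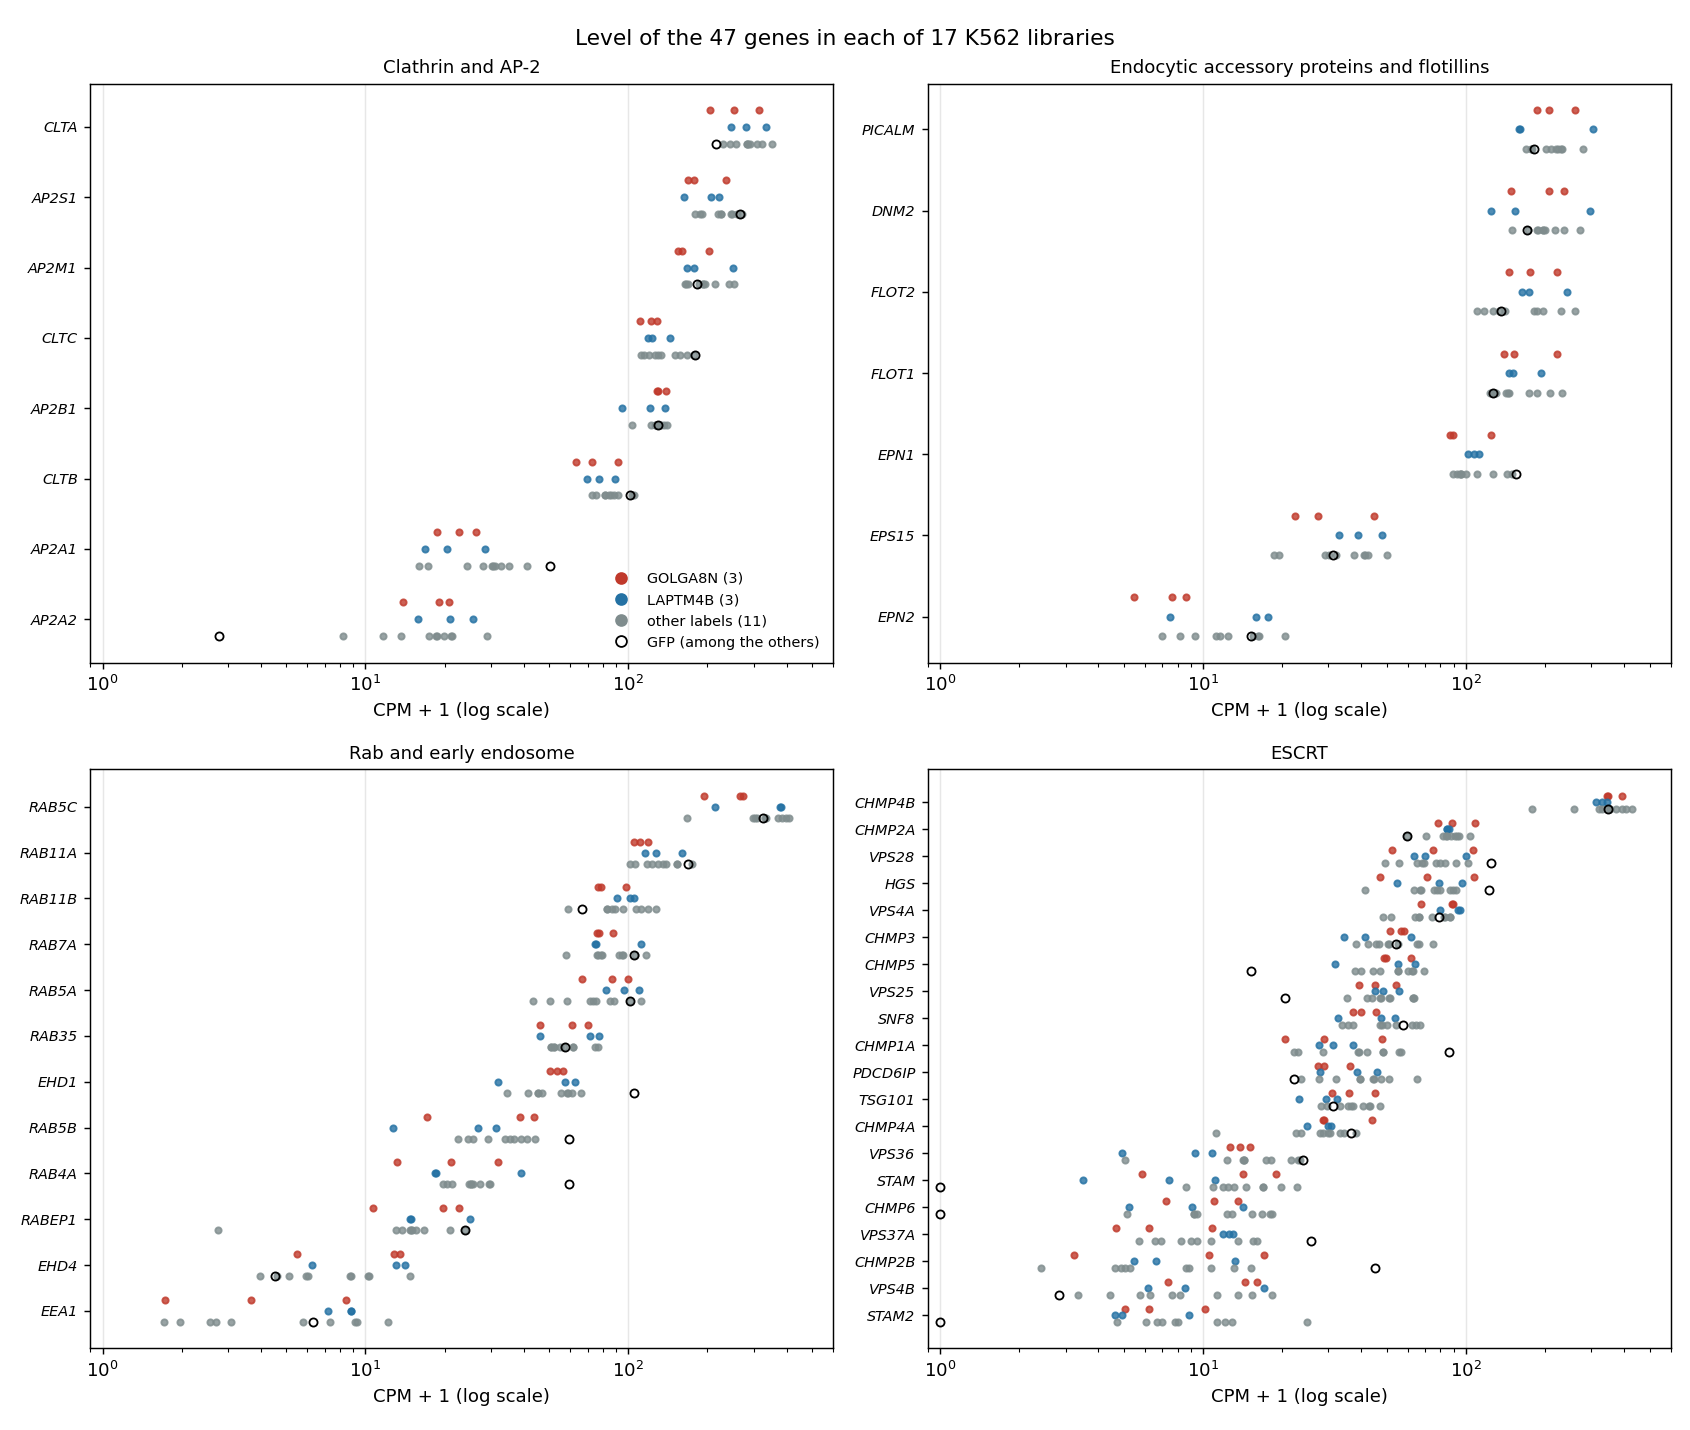
Level of each of the 47 genes as CPM + 1 on a log axis, in 4 panels by role, with one point per library. GOLGA8N libraries are red, LAPTM4B libraries blue and the 11 others grey, with GFP as an open circle. The red and blue points lie among the grey ones for nearly every gene, and GFP stands apart for CHMP2B, at 44.3 CPM.

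Among the clathrin and AP-2 genes, no member passed the test in any comparison, and the 3 clathrin chains were present in every library. CLTA, a clathrin light chain, was the highest at 276 ± 41.7 CPM (SD, n = 17). It stood at 204.1, 251.2 and 312.4 CPM in the GOLGA8N libraries 1, 2 and 23, at 244.9, 280.6 and 333.5 CPM in the LAPTM4B libraries 1, 2 and 22, and at 214.2 to 350 CPM in the others with a median of 282.2 CPM. The 3 groups overlapped throughout. CLTC, the heavy chain that forms the legs of the triskelion, was at 119.6 ± 9.29 CPM in GOLGA8N libraries, 127.7 ± 13.3 CPM in LAPTM4B libraries (SD, n = 3 each) and 141.5 ± 25 CPM in the others (SD, n = 11). CLTB, the second light chain, ran from 62.5 to 104.6 CPM over all libraries.

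AP-2 is built of 4 subunits, of which the alpha subunit comes in 2 forms. AP2S1, the small sigma subunit, had the lowest p of the role for GOLGA8N against the others. It was at 167.8, 233.6 and 177.2 CPM in GOLGA8N 1, GOLGA8N 2 and 23-GOLGA8N, against 178 to 269.9 CPM in the others with a median of 225 CPM. Its log2 difference was -0.19 ± 0.151 (SE; edgeR adjusted p = 0.9999), with a 95% interval of -0.50 to 0.11. It was -0.12 without GOLGA8N 1, -0.34 without GOLGA8N 2 and -0.32 with deposited TPM. The alpha subunit AP2A1 had the lowest p for LAPTM4B against the others. It was at 27.5, 19.5 and 15.9 CPM in LAPTM4B 1, LAPTM4B 2 and 22-LAPTM4B, against 15 to 49.2 CPM in the others, whose highest value came from GFP. Its log2 difference was -0.44 ± 0.310 (SE; edgeR adjusted p = 0.9999). With each library left out it ran from -0.68, without LAPTM4B 1, to -0.30. The mu subunit AP2M1, which binds tyrosine sorting signals, was at 171.5 ± 27.2 CPM in GOLGA8N and 197.5 ± 44.3 CPM in LAPTM4B libraries (SD, n = 3 each), a log2 difference of -0.19 ± 0.196 (SE). This difference was -0.03 without LAPTM4B 2, -0.29 without 22-LAPTM4B and -0.32 without GOLGA8N 2. AP2B1, the beta subunit that binds clathrin, was at 131.2 ± 5.6 CPM in GOLGA8N libraries and 127 ± 9.52 CPM in the others. AP2A2, the other alpha subunit, was the lowest gene of the role at 16.6 ± 6.29 CPM (SD, n = 17).

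The accessory proteins help the coat to form and close. PICALM, which binds clathrin and controls vesicle size, was the highest at 209.6 ± 41.6 CPM, followed by DNM2, the ubiquitous dynamin, at 196.2 ± 45.2 CPM (SD, n = 17 each). EPN1, an epsin that bends membrane, was at 109.2 ± 22 CPM and EPS15, a scaffold of the pit rim, at 33.5 ± 9.49 CPM. EPN2, the second epsin here, was the lowest at 11.1 ± 4.47 CPM and had the lowest p of the role for GOLGA8N. It was at 6.62, 4.46 and 7.61 CPM in GOLGA8N 1, GOLGA8N 2 and 23-GOLGA8N, against 6.01 to 19.6 CPM in the others with a median of 11.5 CPM, and 14.8, 16.7 and 6.47 CPM in LAPTM4B 1, LAPTM4B 2 and 22-LAPTM4B. All 3 GOLGA8N libraries were low, but 21-CTPS2, TRPC5OS and 22-LAPTM4B lay within their range, so the groups overlapped. The log2 difference from the others was -0.90 ± 0.472 (SE; edgeR adjusted p = 0.9999), with a 95% interval of -1.86 to 0.06. Against LAPTM4B the interval was -2.13 to 0.13. With deposited TPM, as log2(TPM + 1), the differences were -0.21 from the others and -0.33 from LAPTM4B. EPN2 averaged 2.12 TPM, and at such levels the added 1 shrinks a log2 difference. Whether that accounts for the whole gap between counts and TPM was not tested.

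FLOT1 and FLOT2, flotillins of membrane microdomains that take part in clathrin-independent uptake, were at 160.4 ± 34.6 and 172 ± 45.4 CPM (SD, n = 17). In GOLGA8N libraries FLOT2 was at 180.4 ± 38.5 CPM and in LAPTM4B libraries at 191.8 ± 43.3 CPM (SD, n = 3 each), against 164.3 ± 49.1 CPM in the others (SD, n = 11). It had the lowest p of the role for LAPTM4B, at a log2 difference of 0.25 ± 0.224 (SE; edgeR adjusted p = 0.9999). That difference was 0.03 without 22-LAPTM4B, 0.16 with the prefix as a term and 0.64 against Neg, GFP and RFP alone. In each of these 2 groups the prefixed library was the highest.

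RAB5C, 1 of 3 RAB5 paralogs, was the highest Rab gene at 313.3 ± 72.6 CPM (SD, n = 17) and had the lowest p of any member for GOLGA8N against the others. It was at 271.9, 265.2 and 193.8 CPM in GOLGA8N 1, GOLGA8N 2 and 23-GOLGA8N, at 377.6, 380.8 and 213.4 CPM in LAPTM4B 1, LAPTM4B 2 and 22-LAPTM4B, and at 166.1 to 406.8 CPM in the others with a median of 331 CPM. All 3 GOLGA8N values lay below 10 of the 11 others and above the remaining library, ADORA2A. The log2 difference was -0.39 ± 0.194 (SE; edgeR adjusted p = 0.9999), with an unadjusted p of 0.0518. It was -0.25 without 23-GOLGA8N and -0.23 with unprefixed labels only. Against LAPTM4B it was -0.40 ± 0.237 (SE), with -0.26 without 23-GOLGA8N and -0.62 without 22-LAPTM4B.

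RAB5A was at 83.3 ± 16.4 CPM in GOLGA8N, 95.1 ± 13.9 CPM in LAPTM4B (SD, n = 3 each) and 77.4 ± 22 CPM in the other libraries. RAB5B had the lowest p of the role for LAPTM4B. Its values were 11.8, 25.9 and 30.4 CPM in LAPTM4B 1, LAPTM4B 2 and 22-LAPTM4B, against 21.4 to 58.4 CPM in the others with a median of 34.4 CPM. Its log2 difference was -0.54 ± 0.310 (SE; edgeR adjusted p = 0.9999). LAPTM4B 1 was the lowest of all libraries, and the difference was -0.23 without it, -0.84 without 22-LAPTM4B, -0.87 with unprefixed labels only and -0.31 with deposited TPM. The recycling Rab RAB11A was at 104.1 to 118.3 CPM in GOLGA8N libraries, against 100.5 to 173.5 CPM in the others, and its paralog RAB11B at 75.8 to 96.7 CPM against 58.2 to 126.7 CPM. RAB7A of late endosomes was at 86.2 ± 16 CPM, RAB35 of fast recycling at 59.2 ± 10.5 CPM and RAB4A at 25.5 ± 10.4 CPM (SD, n = 17 each).

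Of the effectors and EHD proteins, EHD1, an ATPase that acts in recycling, was at 53.8 ± 16.2 CPM, its paralog EHD4 at 7.74 ± 3.8 CPM, and RABEP1, the RAB5 effector rabaptin-5, at 15.7 ± 5.64 CPM (SD, n = 17 each). EEA1, the tether that brings RAB5 vesicles to the early endosome, was the lowest member of all at 4.93 ± 3.29 CPM, with 263 reads over the 17 libraries. Its values of 0.736 to 7.44 CPM in GOLGA8N libraries, 6.19 to 7.83 CPM in LAPTM4B libraries and 0.707 to 11.2 CPM in the others come from few reads each, and its interval for GOLGA8N against LAPTM4B ran from -2.99 to 0.99 on the log2 scale.

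ESCRT-0 binds ubiquitinated cargo on the endosome. Its subunit HGS supplied 80% of the summed ESCRT-0 level, at 76.5 ± 20.8 CPM, while STAM was at 11.4 ± 5.85 CPM and STAM2, the lowest ESCRT gene, at 7.37 ± 5.24 CPM (SD, n = 17 each). STAM2 was at 9.2, 5.21 and 4.03 CPM in GOLGA8N 1, GOLGA8N 2 and 23-GOLGA8N, at 3.64, 3.9 and 7.87 CPM in LAPTM4B 1, LAPTM4B 2 and 22-LAPTM4B, and at 0 to 23.9 CPM in the others with a median of 6.79 CPM. The 3 groups overlapped. ESCRT-I was represented by TSG101, which also binds late-domain motifs of viruses, at 34.4 ± 6.6 CPM, by VPS28 at 77.4 ± 20.8 CPM and by VPS37A at 9.98 ± 5.12 CPM. VPS37A had the lowest p of the role for GOLGA8N. It was at 3.68, 5.21 and 9.85 CPM in GOLGA8N 1, GOLGA8N 2 and 23-GOLGA8N, against 4.7 to 24.8 CPM in the others, and its log2 difference was -0.66 ± 0.513 (SE; edgeR adjusted p = 0.9999). It was -0.40 without GOLGA8N 1, -1.14 without 23-GOLGA8N and -1.07 against Neg, GFP and RFP alone. With deposited TPM, as log2(TPM + 1) at a mean of 2.43 TPM, it was -0.39.

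ESCRT-II consists of VPS25, at 47 ± 10.8 CPM, SNF8, at 46.9 ± 10.9 CPM, and VPS36, its ubiquitin-binding subunit, at 14 ± 5.81 CPM (SD, n = 17 each). VPS36 was the only member at an unadjusted p under 0.05 for LAPTM4B against the others. It was at 8.33, 3.9 and 9.84 CPM in LAPTM4B 1, LAPTM4B 2 and 22-LAPTM4B, against 4.06 to 23 CPM in the others with a median of 16.4 CPM, where UBE2V1 alone fell below 11 CPM. In GOLGA8N libraries it was at 12.9, 14.1 and 11.6 CPM, above every LAPTM4B library. The log2 difference of LAPTM4B from the others was -1.05 ± 0.439 (SE; unadjusted p = 0.0219, edgeR adjusted p = 0.9999), but -0.07 with deposited TPM. The latter is on log2(TPM + 1), where the added 1 shrinks differences at the mean of 1.94 TPM of VPS36. Whether that accounts for the whole gap was not tested. The log2 difference of GOLGA8N from LAPTM4B was 0.80 ± 0.522 (SE; edgeR adjusted p = 0.9996), with 0.47 without LAPTM4B 2. It turned to -0.19 when deposited TPM were used in place of counts, a change of sign whose cause was not tested.

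ESCRT-III forms the membrane-cutting filament and was the most abundant of the ESCRT complexes, at 612.3 ± 67 CPM over 8 genes (SD, n = 17). CHMP4B, the main filament subunit, supplied 55.2% of that and was the highest of all 47 genes at 340.2 ± 57.8 CPM. It was at 342.6 to 391.1 CPM in GOLGA8N libraries, 311.3 to 343.3 CPM in LAPTM4B libraries and 177.6 to 427.6 CPM in the others, with UBE2V1 lowest. CHMP2A was at 83.6 ± 12.8 CPM, CHMP3 at 51.6 ± 10.8 CPM, CHMP5 at 49.6 ± 13.7 CPM, CHMP1A at 39.1 ± 16.5 CPM and CHMP4A at 28.6 ± 7.14 CPM (SD, n = 17 each). CHMP6, which nucleates the filament, was at 10.1 ± 4.81 CPM and CHMP2B at 9.6 ± 9.92 CPM.

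VPS4A, the ATPase that disassembles the filament, was at 80.7 ± 12.6 CPM in GOLGA8N and 88.4 ± 8.28 CPM in LAPTM4B libraries (SD, n = 3 each), against 70.8 ± 13.5 CPM in the others (SD, n = 11). LAPTM4B 1, LAPTM4B 2 and 22-LAPTM4B stood at 93.8, 92.7 and 78.9 CPM. Its log2 difference for LAPTM4B was 0.36 ± 0.184 (SE; unadjusted p = 0.0589, edgeR adjusted p = 0.9999). VPS4B was at 8.8 ± 5.05 CPM and PDCD6IP, which encodes the ESCRT adaptor ALIX, at 36.8 ± 11.3 CPM (SD, n = 17 each).

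Across the roles, then, none of the 47 members passed an edgeR adjusted p of 0.05 for GOLGA8N against the others, for LAPTM4B against the others or for GOLGA8N against LAPTM4B. The same call was made for 0.0226%, 0.0% and 0.00755% of the 13251 genes tested in these comparisons. At an unadjusted p under 0.05 there were 0, 1 and 0 members, against 497, 216 and 369 of all genes. DESeq2 (with no filter on low counts) and limma-voom called 0 members in all 3 comparisons. For GOLGA8N against the others 22 members were higher and 25 lower, with a median log2 difference of -0.04, against -0.01 for all genes. For LAPTM4B against the others 26 were higher and 21 lower, with a median of 0.02, against 0.01 for all genes. For GOLGA8N against LAPTM4B 21 were higher and 26 lower, with a median of -0.03, against -0.02 for all genes. The first 2 comparisons share the 11 other libraries.

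The size of change that the data leave room for differed by gene. The 95% interval of the log2 difference lay within -1 and 1 for 34 of 47 members for GOLGA8N against the others, for 33 for LAPTM4B against the others and for 31 for GOLGA8N against LAPTM4B. The largest estimates in the first comparison were EHD4, at 0.59 ± 0.532, and EPN2, at -0.90 ± 0.472 (SE). In the second they were EEA1, at 0.68 ± 0.737, and VPS36. In the third they were STAM, at 0.90 ± 0.652 (SE), and EPN2. The intervals ran from -0.49 to 1.66 for EHD4, from -0.81 to 2.17 for EEA1 and from -0.42 to 2.23 for STAM. Each of these genes averaged under 20 CPM.

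The CPM of GOLGA8N and the others did not overlap for 0 members, against 0.438% of all genes tested, and those of LAPTM4B and the others for 0 members, against 0.241%. For GOLGA8N against LAPTM4B they did not overlap for 2 of 47 members, VPS36 above and VPS37A below, against 8.45% of all genes.

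**Figure D2:**
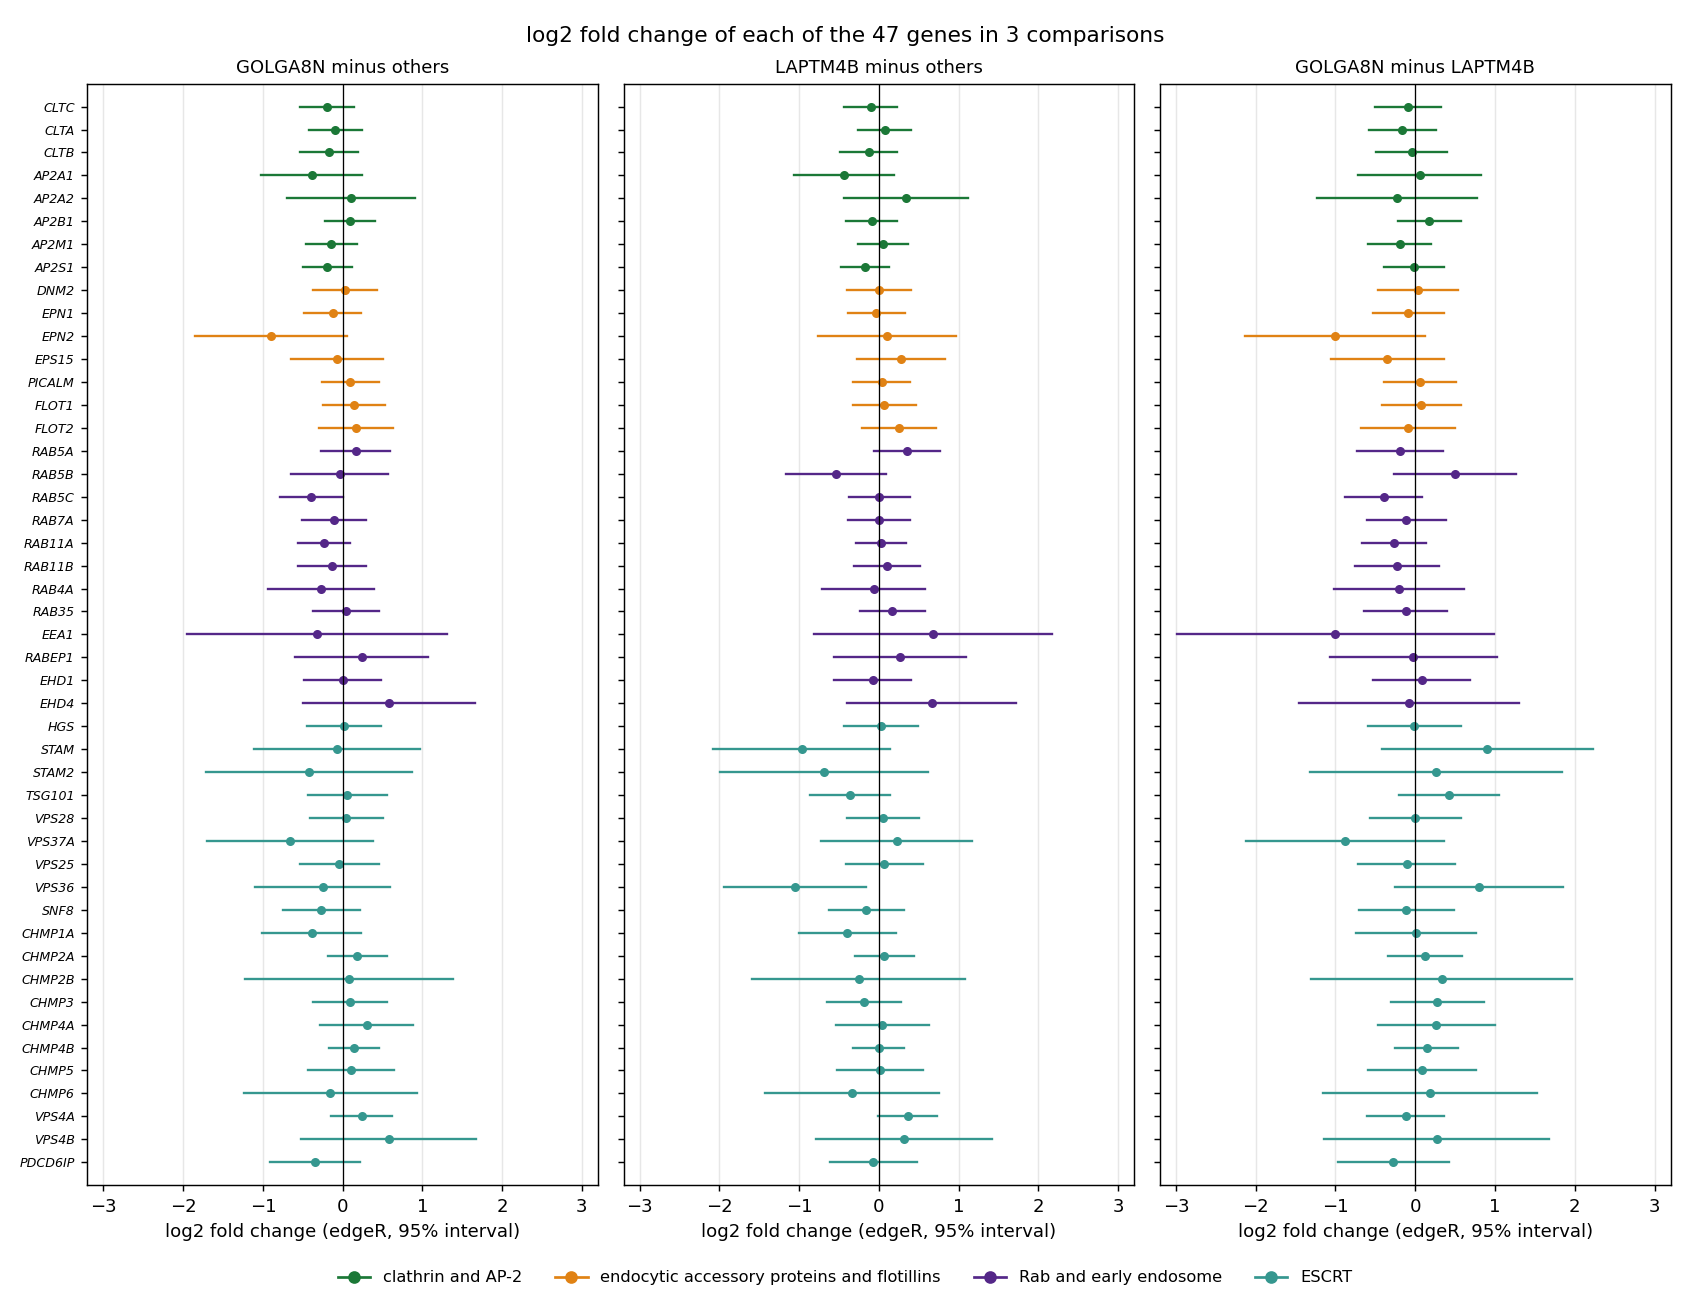
log2 fold change of each of the 47 genes by edgeR (points) with its 95% interval (lines), for GOLGA8N minus others, LAPTM4B minus others and GOLGA8N minus LAPTM4B, coloured by role. The interval crosses 0 for every gene except VPS36 in LAPTM4B minus others, at -1.05, and the widest intervals belong to low genes such as EEA1.

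Summed by role, the levels in GOLGA8N and LAPTM4B libraries lay within the range of the others for Rab and early endosome genes and for ESCRT genes. For clathrin and AP-2 genes and for accessory proteins and flotillins some libraries lay outside it. No test was made of these sums. The clathrin and AP-2 genes summed to 888, 1061 and 1005 CPM in GOLGA8N 1, GOLGA8N 2 and 23-GOLGA8N, to 961.5, 1125 and 1041 CPM in LAPTM4B 1, LAPTM4B 2 and 22-LAPTM4B, and to 1030 to 1181 CPM in the others. Of the 6 libraries labelled GOLGA8N or LAPTM4B, GOLGA8N 1, 23-GOLGA8N and LAPTM4B 1 lay below the lowest of the others. The log2 difference of the GOLGA8N sum from the others was -0.165 in CPM and -0.266 in deposited TPM. The Rab and early endosome genes summed to 794.1 ± 66.3 CPM in GOLGA8N and 932.1 ± 138.9 CPM in LAPTM4B libraries (SD, n = 3 each), against 924.2 ± 88 CPM in the others (SD, n = 11), and the log2 difference of GOLGA8N from the others was -0.216 in CPM and -0.447 in deposited TPM. Of the 12 genes, 2 were higher and 10 lower in GOLGA8N than in LAPTM4B libraries. Of the 20 ESCRT genes 14 were higher and 6 lower, and of all genes tested 48.2% were higher. For GOLGA8N against the others the counts were 5 and 7 of the 12, and 11 and 9 of the ESCRT genes. For LAPTM4B against the others they were 9 and 3, and 9 and 11. Of all genes tested, 48.5% and 50.9% were higher in these 2 comparisons. The genes share the same libraries, so their signs are not independent. RAB5C made up most of the RAB5 sum, at 72.9%. The ESCRT genes summed to 1073 ± 42.3, 1017 ± 79.8 and 1066 ± 106 CPM in GOLGA8N, LAPTM4B and the other libraries.

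The accessory proteins and flotillins had the widest spread of the 4 roles, at 15.6% of the mean over 17 libraries, against 6.94% for clathrin and AP-2, 11.3% for Rab and early endosome genes and 8.69% for ESCRT genes. They summed to 762.1, 843.2 and 1093 CPM in GOLGA8N 1, GOLGA8N 2 and 23-GOLGA8N, to 780.9, 762.5 and 1184 CPM in LAPTM4B 1, LAPTM4B 2 and 22-LAPTM4B, and to 759.7 to 1119 CPM in the others. The prefixed library was the highest of both groups, and the range within GOLGA8N and within LAPTM4B was wider than the differences between the 3 group means of 899.4, 909.3 and 885.3 CPM.

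**Figure D3:**
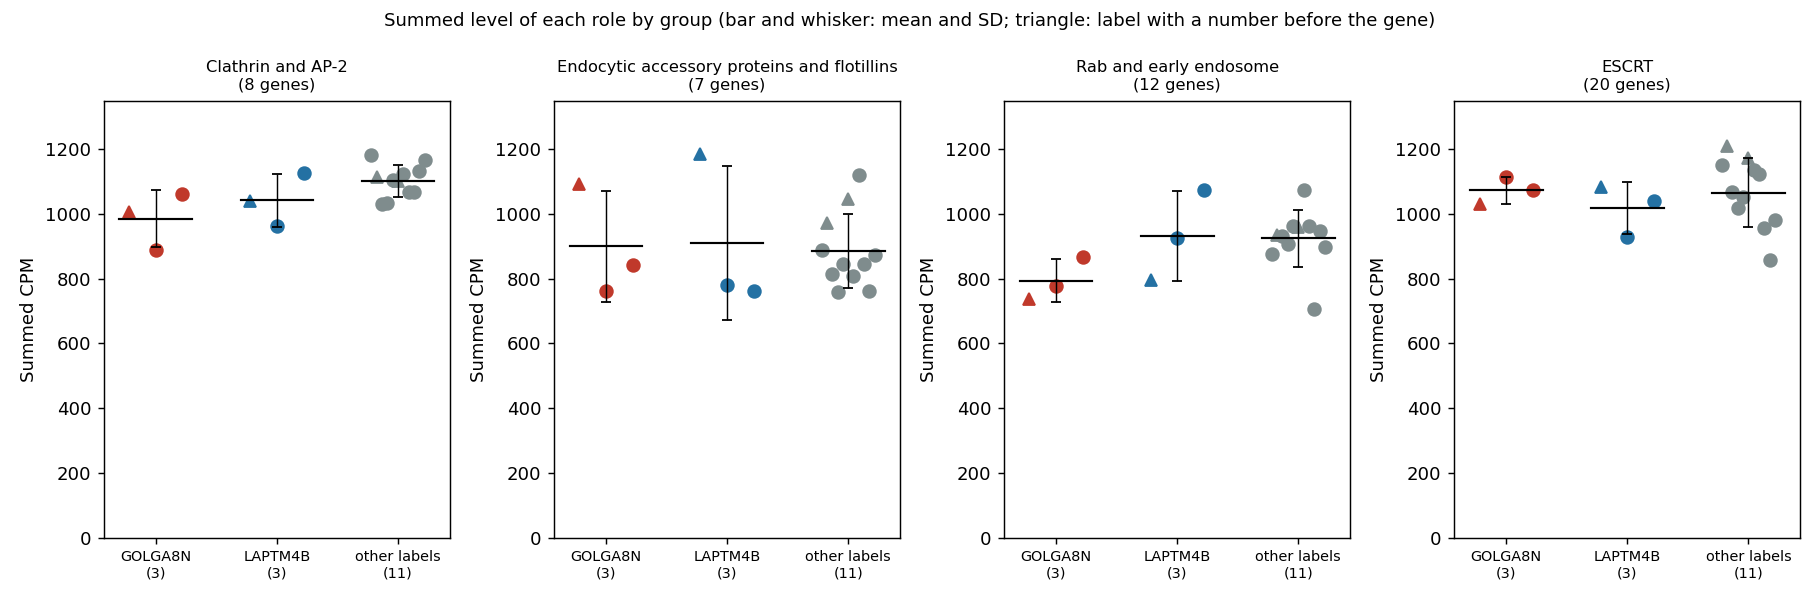
Summed CPM of each role by group, with one point per library, the mean as a bar and the SD as a whisker. Triangles mark the 4 labels with a number before the gene. In the panel of accessory proteins and flotillins 22-LAPTM4B reaches 1184 CPM and 23-GOLGA8N 1093 CPM, above the other libraries of their groups.

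The prefixed labels (20-ARSF, 21-CTPS2, 22-LAPTM4B and 23-GOLGA8N) were therefore set against the 13 unprefixed ones, with the group kept as a term in the fit. FLOT2 led the members. It was at 259.4, 229.3, 241.6 and 221.5 CPM in 20-ARSF, 21-CTPS2, 22-LAPTM4B and 23-GOLGA8N, against 109.3 to 195 CPM in the unprefixed libraries with a median of 145.1 CPM. All 4 prefixed libraries lay above all 13 unprefixed ones. The log2 difference was 0.64 ± 0.149 (SE; unadjusted p = 0.000123) and missed the threshold, at an edgeR adjusted p of 0.0678. FLOT2 was the only member whose 2 sets of libraries did not overlap, against 0.34% of all genes tested, and 0.121% of all genes, 16 in number, passed the threshold.

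The call of FLOT2 depended on the fit while its size did not. The log2 difference lay between 0.52 and 0.69 over 28 alternative fits, and 9 of them called FLOT2. With no filter on low counts it was called by DESeq2 (adjusted p = 0.00763) and by edgeR (adjusted p = 0.00816), and with the filter by limma-voom (adjusted p = 0.0167), while the adjusted p ranged from 0.00763 to 0.278 over these fits. Leaving out GFP, E7, ADORA2A or UBE2V1 gave edgeR adjusted p of 0.0493, 0.0181, 0.0491 and 0.0388. Leaving out any of the 4 prefixed libraries gave 0.18 to 0.278. Within the GOLGA8N and LAPTM4B labels alone the log2 difference was 0.52 ± 0.165 (SE; edgeR adjusted p = 0.209).

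FLOT2 lies on chromosome 17 from 28879335 to 28897679 on the minus strand (GRCh38). Of its reads, 63.9% were assigned to FLOT2-209, a transcript of 266 nt at the 3′ end of the gene, from 28879341 to 28882659. This transcript alone was at 158.6 ± 7.18 CPM in the prefixed libraries (SD, n = 4) and 96.4 ± 19.5 CPM in the unprefixed ones (SD, n = 13). Its ranges of 148.6 to 164 CPM and 70.6 to 131.4 CPM did not overlap. As it holds most reads of FLOT2, these are largely the same values and no separate support. The full-length FLOT2-201 of 2756 nt held 18.7%, at 10.3 to 89.7 CPM against 0 to 88.9 CPM. FLOT2-202 of 2668 nt held a further 17.3%. A 3′ tag does not reach far enough to tell such transcripts apart wherever they share an end.

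Besides FLOT2, 5 members had an unadjusted p under 0.05 between prefixed and unprefixed labels, and none passed over all genes. At this level stood 6 of 47 members and 8.56% of all genes. DNM2 was at 246.1 ± 34.6 CPM in the prefixed libraries (SD, n = 4) and 180.8 ± 36.6 CPM in the unprefixed ones (SD, n = 13), a log2 difference of 0.50 ± 0.150 (SE; edgeR adjusted p = 0.239), but 0.29 without 22-LAPTM4B and 0.21 with deposited TPM. PICALM was at 248.6 ± 41.9 and 197.6 ± 34.7 CPM, a log2 difference of 0.36 ± 0.146 (SE; edgeR adjusted p = 0.434), but 0.16 without 22-LAPTM4B. Within the GOLGA8N and LAPTM4B labels alone DNM2 differed by 0.79 and PICALM by 0.70. FLOT1 was at 191.5 ± 33.1 and 150.8 ± 30.1 CPM, a log2 difference of 0.35 ± 0.160 (SE; edgeR adjusted p = 0.529). CHMP4B and CHMP3 differed by 0.29 ± 0.127 and 0.42 ± 0.186 on the log2 scale (SE; edgeR adjusted p = 0.489 and 0.492), with 0.17 for CHMP4B within the GOLGA8N and LAPTM4B labels alone. In the prefixed libraries 4 of the 7 accessory and flotillin genes were thus in this set, all higher, and 0 of the 8 clathrin and AP-2 genes and 0 of the 12 Rab and early endosome genes. These 4 genes are part of the sum whose high prefixed libraries led to this comparison. The count of 4 therefore adds no separate support. RAB5A was next in its role, at 0.34 ± 0.176 (SE; edgeR adjusted p = 0.607) and 0.22 with deposited TPM. AP2A1 was at -0.43 ± 0.270 (SE; edgeR adjusted p = 0.721) and -0.28 without 20-ARSF.

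The library E7, which carries no prefix, held the highest unprefixed value for 3 of these genes. It was at 270.8 CPM of DNM2 and 278.6 CPM of PICALM, within the prefixed range. For FLOT1 it was at 230.2 CPM, above every prefixed library, but for FLOT2 at 184.7 CPM, below them all. Other unprefixed libraries also lay within the prefixed range, namely Neg, TTR and COL6A6 for PICALM, and TRPC5OS, COL6A6, LAPTM4B 1 and GOLGA8N 2 for FLOT1. Without E7, edgeR called 75 genes between prefixed and unprefixed labels, against 16 with it. Without 21-CTPS2 it called 0, with 842 genes at an unadjusted p under 0.05, and without 22-LAPTM4B 1. Without GFP it called 30. Leaving out TTR, RFP, COL6A6, 23-GOLGA8N, GOLGA8N 1, LAPTM4B 1 or LAPTM4B 2 gave 7, 5, 9, 6, 8, 4 and 5 calls. Over all members 27 were higher and 20 lower in prefixed libraries, with a median log2 difference of 0.05, against -0.03 for all genes.

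**Figure D4:**
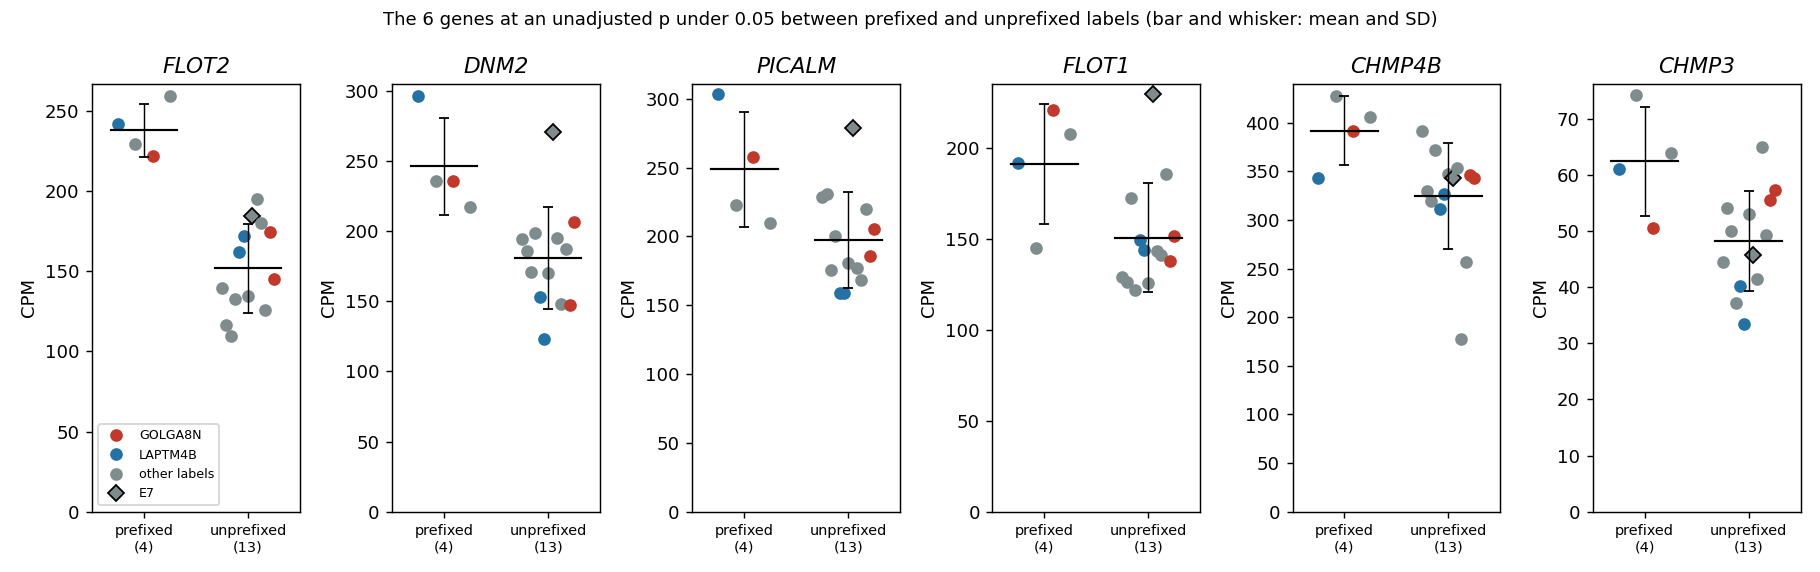
CPM of the 6 members with an unadjusted p under 0.05 between the 4 prefixed and the 13 unprefixed libraries, with one point per library coloured by group, the mean as a bar and the SD as a whisker. For FLOT2 all prefixed points lie above 221 CPM and all unprefixed points at or below 195 CPM. E7, drawn as a diamond, is the highest unprefixed point for DNM2, PICALM and FLOT1.

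What is counted for 4 of the members depends on transcripts of alternate loci, the extra copies that GRCh38 holds for regions that differ between haplotypes. FLOT1, on chromosome 6 from 30727709 to 30742733, had 0.7 reads on the primary assembly over all 17 libraries and 8445 reads with the alternate copies included. Of these, 97.9% lay on 2 copies that were given equal reads in every library. VPS28 had 68.4% of its reads on alternate copies, AP2A2 83.4% and CHMP4A 50%. With the primary assembly alone the coefficient of variation was 82.4% for VPS28 and 171% for AP2A2, against 26.8% and 37.9% with all copies. On the primary assembly VPS28 had under 0.5 reads in 3 libraries and AP2A2 in 6. All copies were therefore summed, and the gene of an alternate copy rests on the symbol that the annotation gives it.

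**Figure D5:**
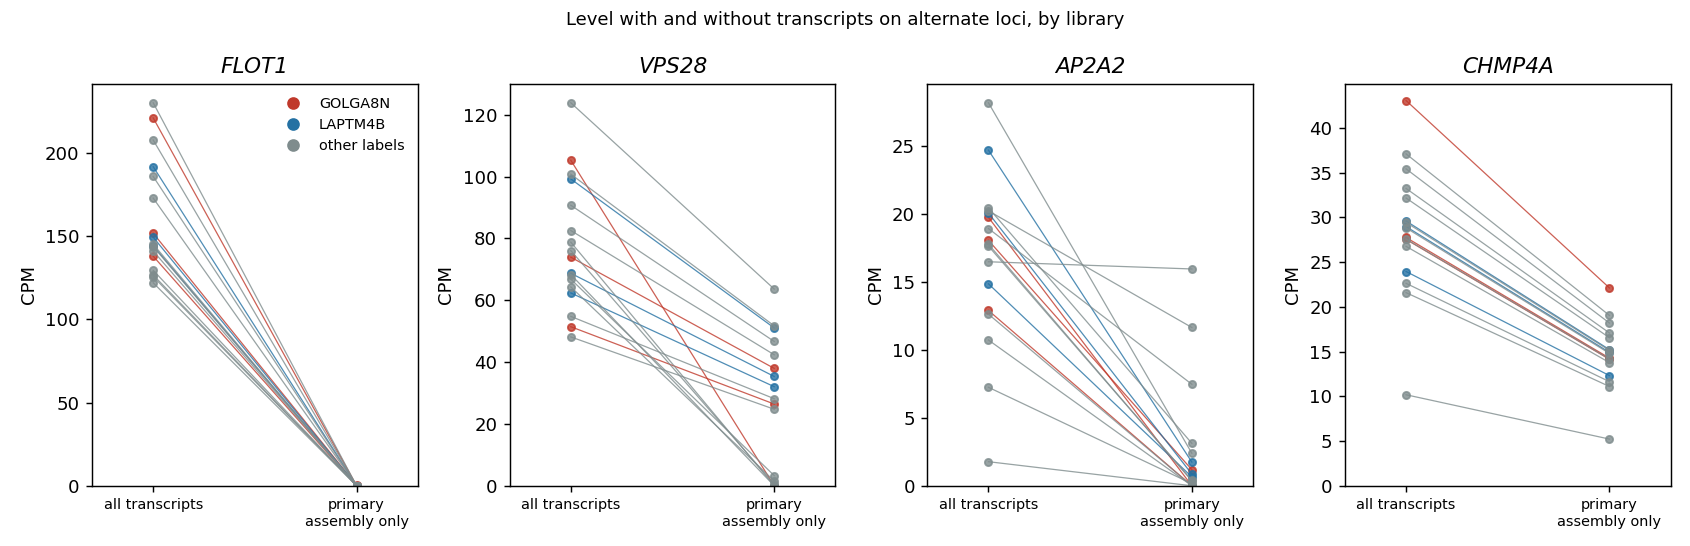
CPM of FLOT1, VPS28, AP2A2 and CHMP4A in each library, with all transcripts counted (left) and with the primary assembly only (right), joined by a line per library and coloured by group. FLOT1 drops to 0.255 CPM or less in every library, CHMP4A to about the same share of its level in each, and VPS28 and AP2A2 to unequal shares.

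Paralogs within the list were unequal in level. Levels between genes are compared here on deposited TPM, which are per length, although 3′ tags give about 1 read per transcript whatever its length. RAB5C was at 72.7 ± 17.8 TPM, RAB5A at 11.9 ± 2.86 TPM and RAB5B at 5.01 ± 3.47 TPM (SD, n = 17 each). CHMP4B was at 81.6 ± 14.5 TPM against 12.2 ± 3.38 TPM for CHMP4A, CHMP2A at 47.2 ± 6.99 TPM against 2.65 ± 5.68 TPM for CHMP2B, and VPS4A at 11.2 ± 2.13 TPM against 1.01 ± 0.581 TPM for VPS4B. EPN1 at 15.5 ± 3.05 TPM stood above EPN2 at 2.12 ± 1.69 TPM, EHD1 at 5.87 ± 1.94 TPM above EHD4 at 0.466 ± 0.299 TPM, and CLTA at 148.4 ± 20.6 TPM above CLTB at 30.3 ± 5.54 TPM. In all 17 libraries the first of each of these sets was the higher one, in TPM and in CPM.

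Other sets were closer. RAB11A exceeded RAB11B in all 17 libraries in TPM, at 88.7 ± 32.5 against 22.2 ± 4.02 TPM, but in 15 of 17 in CPM. STAM exceeded STAM2 in 13 of 17 libraries on either scale. FLOT2 exceeded FLOT1 in all 17 libraries in TPM and in 12 in CPM. AP2A1 and AP2A2 changed places, with AP2A2 first in TPM, at 4.43 ± 1.94 against 4.37 ± 1.6 TPM, and AP2A1 first in CPM. These 2 did not differ beyond their spread in TPM.

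Other genes end where a member ends, and no source used here gives the strand setting of the counts. Within 500 bp of the 3′ end of the most counted primary transcript, 7 members met a gene of at least 100 reads. AP2B1, with 6517 reads, meets TAF15 on the same strand with 9133. On the opposite strand CLTC meets PTRH2, CLTB meets ARL10, AP2A1 meets FUZ, RABEP1 meets NUP88, HGS meets AC139530.1 and VPS4A meets COG8. The values of these members are uncertain to that extent.

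Further genes of the same pathways, 134 in 6 lists, were read in the same fits, and 118 were tested. None was called in any of the 4 comparisons, which called at most 0.121% of all genes tested. For GOLGA8N against the others 60 were higher and 57 lower, the remaining gene being at 0. Of all genes tested, 48.5% were higher. The median log2 difference was 0.01, against -0.01 for all genes. At an unadjusted p under 0.05 stood 7 of the 118, against 3.75% of all genes. The lowest p of each list belonged to the following genes. PIK3C3, the class III PI 3-kinase that makes the lipid PI3P of early endosomes, was at 15.3, 26.7 and 37.5 CPM in GOLGA8N 1, GOLGA8N 2 and 23-GOLGA8N, against 3.54 to 19.7 CPM in the others. Its log2 difference was 1.27 ± 0.389 (SE; unadjusted p = 0.00236, edgeR adjusted p = 0.9999).

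VTA1, a cofactor of the ATPase VPS4, was at 36.4, 33.5 and 19.3 CPM in GOLGA8N 1, GOLGA8N 2 and 23-GOLGA8N, against 41.9 to 92.1 CPM in the others. These groups did not overlap for VTA1, as for 0.438% of all genes tested, and VTA1 was picked by its low p. Its log2 difference was -0.77 ± 0.247 (SE; unadjusted p = 0.00349, edgeR adjusted p = 0.9999). CD44, a hyaluronan receptor taken up without clathrin, was at 44.5, 56.6 and 14.8 CPM in GOLGA8N 1, GOLGA8N 2 and 23-GOLGA8N, against 2.35 to 31.6 CPM in the others with a median of 5.82 CPM. Its log2 difference was 1.82 ± 0.561 (SE; edgeR adjusted p = 0.9999). VPS33B, a SNARE-binding protein of late endosomes, was at 3.68 ± 1.12 CPM in GOLGA8N libraries (SD, n = 3) and 10.2 ± 7.48 CPM in the others (SD, n = 11). EPS15L1, a relative of EPS15, was at 14.9 ± 5.85 against 8.98 ± 4.17 CPM and the receptor IGF1R at 7.88 ± 2.59 against 2.18 ± 2.28 CPM in the same groups.

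The promoters of 42 members were found by symbol among RefSeq promoters of GRCh38.p14, and the 250 bases before the start were searched on both strands for short motifs. A palindrome of the E-box kind, TCACGTGA, whose core CACGTG is the centre of the sites that TFEB and related factors bind at lysosomal genes, lay in 4 of 42 members (9.52%), against 2.1% of 9280 tested genes and 1.04% of all 27305 genes with a promoter there. It is shown because these members span 3 of the 4 roles. The stretch of RAB5A is at chr3:19946964-19946993 (plus), that of PDCD6IP at chr3:33798513-33798542 (plus), that of PICALM at chr11:86069299-86069328 (minus) and that of CHMP4A at chr14:24213585-24213614 (minus). FLOT2 is added as the member with the lowest p, with the only match to an AP-1 motif beside RAB5B, TGACTCA, here as its reverse complement at chr17:28897888-28897917 (minus). Capitals mark the match, and each stretch has 30 bases written 5′ to 3′ on the strand of the gene.
RAB5A: cactcgcagggTCACGTGAcatcctgcctc
PDCD6IP: ccgcgacacctTCACGTGAccgcggacagc
PICALM: ggcagggagagTCACGTGAtgcgccggctg
CHMP4A: ggtggcttgggTCACGTGAcaccggtggtc
FLOT2: gtgctgagaagTGAGTCAgggcagggcagc

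None of the 4 members with the palindrome was called in any comparison. For GOLGA8N against the others the log2 differences were 0.16 for RAB5A, -0.34 for PDCD6IP, 0.09 for PICALM and 0.30 for CHMP4A. Between prefixed and unprefixed labels they were 0.34 ± 0.176, 0.13 ± 0.238, 0.36 ± 0.146 and 0.05 ± 0.257 (SE) in the same order of genes. Of all genes tested, 46.9% were positive there. RAB4A and VPS36, which hold the core CACGTG without the full palindrome, were at -0.43 and -0.0004. Per GENCODE 29 the stretch of RAB5A lies in an exon of EFHB and that of FLOT2 in exons of DHRS13 and AC024267.6, whereas the other 3 lie in exons of the gene itself, upstream of the RefSeq start, and those of PDCD6IP and CHMP4A also in exons of AC112220.2 and AL096870.2. CACGTG is the centre of TCACGTGA, so the matches to both overlap. The core CACGTG alone was in 6 of 42 members (14.3%) against 11.4% of tested genes. For the other motifs the shares were 78.6% against 74.6% for GGGCGG, 38.1% against 41.6% for CCAAT, 35.7% against 20.1% for CCGGAAG, 2.38% against 7.47% for TATAAA and 4.76% against 3.98% for TGACTCA. Members held a median of 23 CG dinucleotides in these 250 bases, as did tested genes, against 12 in all genes. A match is a run of letters, and binding was not measured.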

How the data were processed

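The 17 libraries are 3′ tag libraries of total RNA primed with oligo-dT carrying molecular identifiers of 12 bp, per the labels' protocols. Per the file headers each library has a table of 228297 transcripts in Salmon's layout. It gives the authors' estimated counts, not all of them whole, beside the authors' TPM. Tools listed in the submitters' processing notes are Salmon 0.7.2, STAR with the same version, featureCounts and UMI-tools, with the builds GRCh38 and hg38. No source used here says whether reads sharing an identifier were collapsed, so read floors cover counting error only.

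Sums of the estimated counts per gene were then formed with GENCODE 29, which matched 222728 transcripts, 205336 on the primary assembly and 17392 of alternate loci by the symbol in the annotation's tables (2.52% to 2.78% of the reads). Transcripts without a gene, 0.71% to 0.88% of the reads, stayed out. CPM are per 1e6 reads in genes. Rounded sums entered the quasi-likelihood test of edgeR 4.0.16 (R 4.3.3), with filterByExpr, TMM and all 17 libraries in 1 fit. P-values had Benjamini-Hochberg adjustment over 13251 genes and a threshold of 0.05. The SE is the log2 difference divided by the root of F. The prefix comparison kept the group as a term. Alternatives were DESeq2 1.42.0 on genes before the filter, limma-voom and limma-trend 3.58.1, RLE size factors, other filters, deposited TPM as log2(TPM + 1), other sets of libraries, a replicate block, leaving out each library and, chosen after seeing the data, the primary assembly only. On simulated counts for GOLGA8N against the others (12449 genes tested), drawn with edgeR's fitted dispersions, 50 genes were altered at each fold size. The test found 3 of those at 1.5-fold, 13 at 2-fold, 41 at 4-fold and 46 at 8-fold, and 4 of its 107 calls were false. Only genes above a floor of expected reads were altered, so these shares do not cover low genes such as EEA1. The altered genes were drawn from all genes tested above that floor, not from the members. The biological coefficient of variation fitted by edgeR had a median of 0.2535 for members and 0.4694 for all genes tested. The shares may therefore differ for the members.

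The members, the pathway lists and the tests were chosen with earlier results of these data known. Named genes were the members with the lowest p of each role in each comparison, the highest and lowest of each role, the most and least variable, paralogs, and the gene with the lowest p of each pathway list for GOLGA8N. DNM2, PICALM, FLOT1, CHMP4B, CHMP3, VPS4A and the promoter motifs were chosen after their values were seen.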

Additional observations from a re-analysis of the deposited data

How the results depend on the processing

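Members called stayed at 0 in every alternative run for GOLGA8N against the others, LAPTM4B against the others and GOLGA8N against LAPTM4B. Between prefixed and unprefixed labels 1 member, FLOT2, was called by DESeq2 with no filter, limma-voom, edgeR with no filter, the filter of 10 CPM and the fit with no term for the group, and 0 to 1 when each library was left out. Its log2 difference in those 5 fits was 0.63 to 0.66. Genes called over the whole table were fewer or more by over 1.5 times in many settings. For GOLGA8N against the others there were 12 with DESeq2 and no filter (2 choices changed together, as in each DESeq2 fit), 10 with edgeR and no filter, 5 with deposited TPM and 8 with unprefixed labels only, against 3, and 1 to 6 without each library. For LAPTM4B against the others there were 5 with DESeq2 and no filter, 1 with limma-voom and 2 with edgeR and no filter, against 0. For GOLGA8N against LAPTM4B there were 2 with DESeq2 and no filter, 0 with limma-voom, 4 with edgeR and no filter, 2 with unprefixed labels, 2 with the prefix as a term, 2 with the replicate block and 3 with the replicate block on the libraries titled 1 and 2, against 1, and 0 to 2 without each library. Between prefixed and unprefixed labels there were 106 with DESeq2 and no filter, 46 with limma-voom, 95 with edgeR and no filter, 25 with the filter of 10 CPM, 1 with deposited TPM, 37 with no group term and 70 within the GOLGA8N and LAPTM4B labels, against 16, and 0 to 75 without each library. The cause was not tested. With deposited TPM the summed log2 difference moved by more than the spread for clathrin and AP-2 (-0.266, against -0.165) and for Rab and early endosome genes (-0.447, against -0.216) in GOLGA8N against the others, and for Rab and early endosome genes (-0.271) and ESCRT genes (-0.032, against 0.116) between prefixed and unprefixed labels; the other 268 of 272 alternatives for sums kept within it. VPS36 for GOLGA8N against LAPTM4B turned to -0.19 with deposited TPM. The titles 1 and 2 share only a number, with a correlation of 0.108 across 13251 genes between their deviations. Depth limits the low members, above all in GFP.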
